A study of Mus musculus with 20 samples.

Results

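A set of 8 neutrophil genes was followed through colorectal liver metastasis (CRLM) in the mouse, out of the 54532 genes that the deposited count tables list. Of these, 6 were taken as neutrophil markers: S100a8, S100a9, Csf3r, Cxcr2, Retnlg and Il1r2. The other 2, G0s2 and Hdc, were picked because they differed between the sorted cell populations of the same study. All 8 were found by name in the table of whole tissue and by their gene identifiers in the table of sorted cells, which lists no names, and all 8 passed the filter on low counts in both.

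The tissue series held livers and liver metastases of wild-type C57BL/6 mice, aged 6 to 8 weeks by the study's Methods. The normal liver (con, day 0) came from mice given normal saline and had 2 samples. All other groups came from mice injected with Mc38 cells, a colon adenocarcinoma line of the same strain, through the spleen and portal vein. The tumor-free liver of such a mouse at day 12 (L-con) had 1 library. Low-content metastases (Lt) and the medium-content group Mt3 were taken at day 9, the medium-content groups Mt2 and Mt1 at day 11, each with 2 samples. High-content metastases (Ht, day 12), which the Methods describe as nearly all tumor, had 3 libraries. The Methods describe Ht libraries 1 and 3 as identical, so their counts were added to 1 sample and Ht had 2. From metastases of the Mt2 kind, cells were drawn at day 11 with microbeads against F4/80 or against CD11b, with 3 libraries each.

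Neutrophils are short-lived granulocytes of the blood that are made in the bone marrow and drawn into inflamed tissue and tumors. S100a8 and S100a9 encode the subunits of calprotectin, the most abundant protein pair of the neutrophil cytosol. Csf3r encodes the receptor of granulocyte colony-stimulating factor, which drives their production, and Cxcr2 the chemokine receptor that leads them out of the marrow and into tissue. Il1r2 encodes the decoy receptor of interleukin-1, and Retnlg a resistin-like secreted protein of mouse neutrophils. G0s2 encodes an inhibitor of adipose triglyceride lipase (Pnpla2), the enzyme that starts the breakdown of stored fat, and is used by hepatocytes and fat cells as well as by neutrophils. Hdc encodes histidine decarboxylase, which makes histamine and is best known from mast cells and basophils. CD11b stands on neutrophils, monocytes and many macrophages, whereas F4/80 marks mature macrophages, among them the Kupffer cells of the liver.

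The tissue libraries held 16032085 to 18246623 counts and the sorted libraries 17785496 to 20548370. Levels are given as CPM, a gene's counts as a share of its library on a fixed scale, after normalization by the trimmed mean of M values (TMM), a method that corrects library sizes for differences in composition. Before TMM scaling, 3 counts at these depths equal 0.164 to 0.187 CPM in tissue and 0.146 to 0.169 CPM in sorted cells. This covers counting error only. On the TMM scale the 3 counts of Cxcr2 in con 2 equal 0.248 CPM. In the summed sample Ht 1 the 18 counts of Retnlg equal 0.335 CPM. Sex is given as male in the labels of the samples and as female in the Methods. The Y-linked gene Ddx3y had 348 to 1421 counts in the tissue libraries and 0 in the sorted ones. The female-expressed gene Xist had 0 to 3 counts in the tissue libraries and 5547 to 21805 in the sorted ones. By these genes the tissue was male and the sorted cells female, so the animals of the 2 tables were not alike in this respect. Nothing in the labels ties samples with the same number to 1 animal. The Methods give 2 livers for each tissue group except L-con, and for the sorted libraries no source says whether they came from separate animals, so their spread may be technical.

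The defining neutrophil surface gene Ly6g was close to 0 in tissue, with at most 7 counts in any sample and 0 counts in con, L-con and Lt. In the sorted cells Ly6g had 145, 60 and 311 counts in the CD11b+ libraries and 0, 8 and 52 in the F4/80+ libraries. Stfa2l1, another gene with little use outside neutrophils, had 33, 59 and 115 counts in the CD11b+ libraries and 0, 1 and 5 in the F4/80+ libraries. The members were thus accompanied by defining neutrophil genes in the CD11b+ libraries, while in whole tissue these 2 genes were too low to be tested.

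The promoters of 4 members are shown: the calprotectin pair, and the pair picked from the sorted cells, since these pairs parted in tissue. They are the 250 bases before the start that RefSeq gives on GRCm38.p6, read on the gene's strand from 5′ to 3′. Capitals mark matches, on either strand, to a motif of C/EBP factors (TTGCNNAA), of PU.1 (GAGGAAGT), the TATA box (TATAAA) and the GC box (GGGCGG). C/EBP factors and PU.1 act in the making of granulocytes. S100a8 lies on chromosome 3 from 90668978 to 90670035 (plus strand) and its promoter at chr3:90668821-90669070. S100a9 lies on chromosome 3 from 90692632 to 90695721 (minus strand) and its promoter at chr3:90695722-90695971. G0s2 lies on chromosome 1 from 193272161 to 193273217 (minus strand) and its promoter at chr1:193273189-193273438. Hdc lies on chromosome 2 from 126593667 to 126619299 (minus strand) and its promoter at chr2:126618679-126618928. The RefSeq starts of S100a8, G0s2 and Hdc lie inside the bounds that the deposited table gives for these genes.
S100a8: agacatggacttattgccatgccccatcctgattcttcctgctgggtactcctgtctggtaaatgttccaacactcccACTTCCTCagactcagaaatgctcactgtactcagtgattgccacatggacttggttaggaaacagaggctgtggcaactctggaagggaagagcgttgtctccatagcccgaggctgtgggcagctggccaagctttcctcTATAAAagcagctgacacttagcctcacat
S100a9: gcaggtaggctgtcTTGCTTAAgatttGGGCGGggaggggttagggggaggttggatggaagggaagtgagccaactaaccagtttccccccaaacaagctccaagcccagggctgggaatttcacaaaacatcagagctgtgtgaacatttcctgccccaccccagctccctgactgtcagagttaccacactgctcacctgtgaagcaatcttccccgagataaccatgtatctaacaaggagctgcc
G0s2: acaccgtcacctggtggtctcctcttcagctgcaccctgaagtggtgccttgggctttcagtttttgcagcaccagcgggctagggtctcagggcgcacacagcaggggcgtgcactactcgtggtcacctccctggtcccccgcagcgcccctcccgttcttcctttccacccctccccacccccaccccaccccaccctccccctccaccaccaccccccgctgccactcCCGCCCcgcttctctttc
Hdc: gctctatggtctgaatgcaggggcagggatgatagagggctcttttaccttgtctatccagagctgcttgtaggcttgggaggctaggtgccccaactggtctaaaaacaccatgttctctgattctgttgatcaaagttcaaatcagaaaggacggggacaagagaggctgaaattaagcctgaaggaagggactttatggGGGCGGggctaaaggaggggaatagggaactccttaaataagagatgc

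The C/EBP letters occurred in 2 of the 8 member promoters, S100a9 and Retnlg, and in 9.56% of all 32851 promoters of that length. The PU.1 letters occurred in S100a8 alone among the members and in 2.44% of all promoters. S100a8 also held TATAAA from 30 to 25 bases before its start, as did 12.4% of all promoters somewhere in the window. The GC box occurred in S100a9, G0s2 and Hdc and in 32.7% of all promoters. Motifs did not overlap within these windows, and a match describes letters only.

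The other 4 members lie apart from each other. Csf3r lies on chromosome 4 from 126024550 to 126044440, Retnlg on chromosome 16 from 48872621 to 48874496, and Il1r2 and Cxcr2 on chromosome 1, from 40074079 to 40125231 and from 74153989 to 74161246. S100a8 and S100a9 are neighbours on chromosome 3. Positions are those of the deposited tissue table (GRCm38).

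The sorted populations are described first, without a test, because G0s2 and Hdc were chosen on them. In all 8 genes every CD11b+ library lay above every F4/80+ library. Such a separation with CD11b+ above held for 11.8% of the 14263 genes in the fit, and nothing is read from the members' count here, since the contrast entered their choice.

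Among the calcium-binding proteins, S100a8 was at 2.64, 12.97 and 86.2 CPM in F4/80+ libraries 1, 2 and 3 and at 275, 177 and 1484 CPM in the CD11b+ libraries. S100a9 was at 6.32, 19.5 and 155 CPM in the F4/80+ libraries and at 448, 301 and 1887 CPM in the CD11b+ libraries. Both genes stood highest in CD11b+ library 3, and within the F4/80+ cells library 3 carried the most of both. The fitted log2 fold changes of F4/80+ against CD11b+ were -4.25 for S100a8 and -3.86 for S100a9. Their size moved with library 3 of either population, since without F4/80+ 3 they were -6.37 and -6.08, and without CD11b+ 3 they were -2.73 and -2.63. Retnlg was likewise highest in library 3 of both populations, with 0.275, 3.23 and 19.4 CPM in F4/80+ and 57.5, 64.0 and 178 CPM in CD11b+ cells.

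Among the receptors, Csf3r and Il1r2 did not share this rise to F4/80+ library 3, while Cxcr2 did. Csf3r was at 157, 211 and 195 CPM in the F4/80+ libraries and at 321, 455 and 312 CPM in the CD11b+ libraries, only 1.93 times higher on average. Il1r2 was at 15.8, 16.4 and 12.7 CPM in F4/80+ and at 76.9, 118 and 69.9 CPM in CD11b+ cells. Cxcr2 was at 0.275, 1.22 and 5.93 CPM in F4/80+ and at 40.9, 62.9 and 57.2 CPM in CD11b+ cells. These 3 receptor genes stood highest in CD11b+ library 2.

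G0s2 showed the widest gap of the 8 genes. It was at 0.384, 1.22 and 0.961 CPM in the F4/80+ libraries, or 7, 23 and 18 counts, and at 40.9, 76.5 and 157 CPM in the CD11b+ libraries. Its fitted log2 fold change was -6.72, a size that its choice on this contrast favors, and that of Csf3r was -0.95. Hdc was at 5.11, 6.67 and 11.6 CPM in F4/80+ and at 90.5, 152 and 90.2 CPM in CD11b+ cells, a fitted log2 fold change of -3.83. F4/80+ library 3, which stood far above library 1 in S100a8, S100a9 and Retnlg, was not the highest F4/80+ library for G0s2.

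**Figure D1:**
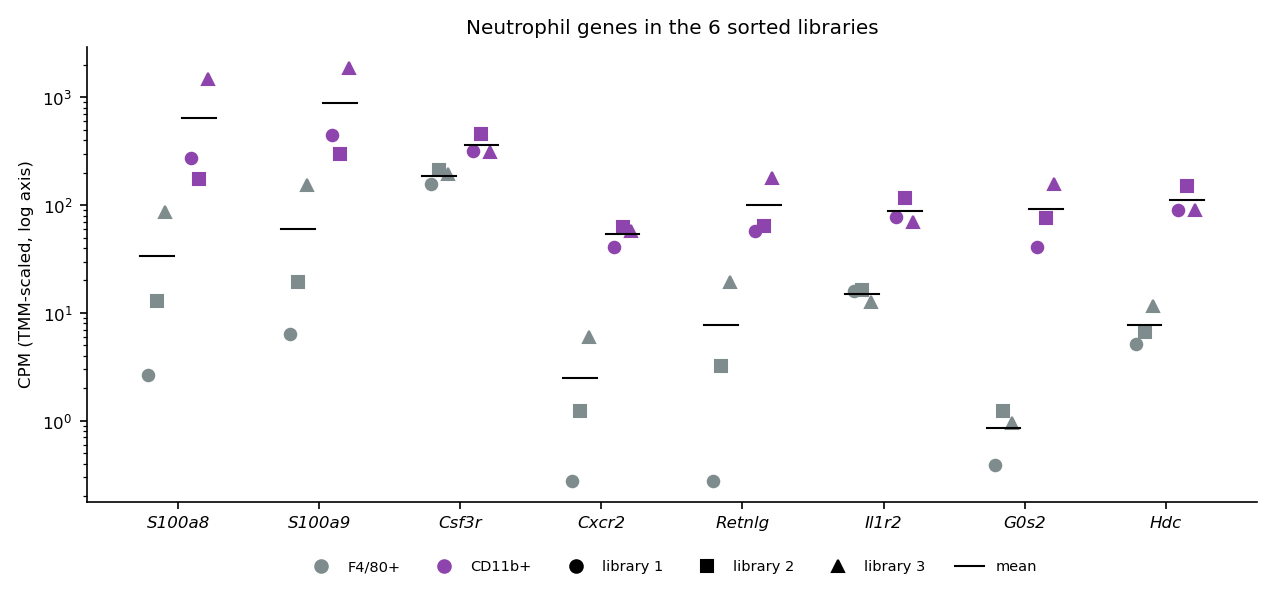
CPM on a log axis of the 8 genes in the 3 F4/80+ (grey) and 3 CD11b+ (purple) libraries, with the shape giving the library and the line the mean. Every CD11b+ library lies above every F4/80+ library in each gene, by the widest gap in G0s2 and the narrowest in Csf3r.

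Of 14 other neutrophil genes, most of them with little use in macrophages or hepatocytes though Mmp9 is also made by macrophages, 13 were in the fit of the sorted cells, with a median log2 fold change of -2.73, while the median over all genes was -0.004. Their summed level was 125 to 529 CPM in the F4/80+ libraries and 686 to 2586 CPM in the CD11b+ libraries, and 8 of the 14 had every CD11b+ library above every F4/80+ library. Macrophage markers were high in both populations, with summed levels of 15795 to 17824 CPM in F4/80+ and 14423 to 22397 CPM in CD11b+ cells. Kupffer cell markers summed to 600 to 2465 CPM in F4/80+ and 41.2 to 112 CPM in CD11b+ cells. Endothelial markers summed to 123 to 255 CPM and 57.9 to 68.1 CPM. The 12 basophil and mast cell markers, which matter for Hdc, summed to 6.87 to 12.3 CPM in F4/80+ and 15.1 to 20.5 CPM in CD11b+ cells, and only 2 of them passed the filter on low counts. Mcpt8, a protease of basophils, had 1, 6 and 5 counts in the F4/80+ and 8, 8 and 4 counts in the CD11b+ libraries. Hepatocyte markers summed to 215 to 380 CPM in F4/80+ and 83.6 to 258 CPM in CD11b+ cells. These ranges overlapped, and CD11b+ library 3, highest in G0s2, had the highest hepatocyte sum of the CD11b+ libraries. The part of hepatocyte RNA in these levels was not tested.

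The first question in whole tissue was whether these genes differed between normal liver and early metastases. From con to Lt, 5 of the 8 members rose past the threshold, set at an adjusted p of 0.05 or less together with a change of 1 or more on the log2 scale. Of all 17187 genes tested, 12.4% were called higher in this comparison. The con and Lt samples did not overlap, with Lt higher, in 6 members and in 37.2% of all genes. S100a8, S100a9, Csf3r, Retnlg and Il1r2 rose, Cxcr2 did not pass the test, and G0s2 and Hdc did not pass either. With scaling by total counts the median gene stood at 0.40 in place of 0.10 on the log2 scale. In bulk tissue, more neutrophils and more RNA per cell cannot be told apart. Monocyte and macrophage markers moved with these genes: 6 of 7 monocyte markers rose from con to Lt, with a median log2 change of 4.78 and a summed level of 10.7 to 15.2 CPM in con and 245 to 600 CPM in Lt. Of 9 macrophage markers 4 rose, from a sum of 540 to 806 CPM in con to 1000.4 to 1387 CPM in Lt. Of the members, Csf3r was also well above 100 CPM in every F4/80+ library, and the part of these cells in the rise was not tested.

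S100a8 was at 0.354 and 0.579 CPM in the con samples and at 4.01 and 2.91 CPM in the Lt samples. The groups did not overlap, and the fitted change was 2.87 ± 0.39 (log2 scale, ± SE throughout, with an adjusted p of 0.00229 by edgeR). S100a9 was at 0.708 and 0.413 CPM in con and at 6.45 and 1.29 CPM in Lt. Here the Lt samples stood far apart from each other, and the change of 2.77 ± 0.74 only just passed (adjusted p = 0.0369 by edgeR). Without Lt 1 the S100a9 change was 1.19, and without Lt 2 it was 3.52. Retnlg was at 0.177 and 0.165 CPM in con and at 1.58 and 1.94 CPM in Lt, from 4 counts in all in con and 52 in Lt. Its log2 change came to 3.32 ± 0.51 (adjusted p = 0.00361 by edgeR).

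Csf3r was at 2.83 and 1.32 CPM in con and at 6.66 and 11.6 CPM in Lt, a log2 change of 2.14 ± 0.50 (adjusted p = 0.0208 by edgeR). Il1r2 had 1 count in the 2 con samples together and stood at 0.788 and 1.49 CPM in Lt. Its ratio of Lt to con by the counts was 27.03 with a 95% exact counting interval of 4.54 to 1099, and it passed the test (adjusted p = 0.0290 by edgeR). Cxcr2 was at 0 and 0.248 CPM in con, from 3 counts, and at 1.29 and 0.517 CPM in Lt, a ratio of 6.89 with a counting interval of 2.11 to 35.6. The Cxcr2 groups did not overlap, but the adjusted p was 0.0965 by edgeR.

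The calls of S100a8 and Retnlg held when any single con or Lt sample was left out, and those of the others did not. Without con 1, con 2, Lt 1 or Lt 2 the members called numbered 3, 2, 4 and 3, and the calls over all genes went from 2177 to 1428, 735, 2284 and 918. S100a9 was lost without con 1, con 2 or Lt 1, Il1r2 without con 1, con 2 or Lt 2, and Csf3r without con 2 or Lt 2, with adjusted p from 0.0744 to 0.215 by edgeR.

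G0s2 and Hdc were already present in normal liver. G0s2 was at 39.3 and 77.5 CPM in con and at 71.3 and 34.9 CPM in Lt, and its log2 change came to -0.14 ± 0.58 (adjusted p = 0.893 by edgeR). Hdc was at 8.41 and 6.697 CPM in con and at 15.6 and 7.05 CPM in Lt, a log2 change of 0.58 ± 0.42 (adjusted p = 0.382 by edgeR). For both genes the groups overlapped, and the difference was within the spread between samples.

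**Figure D2:**
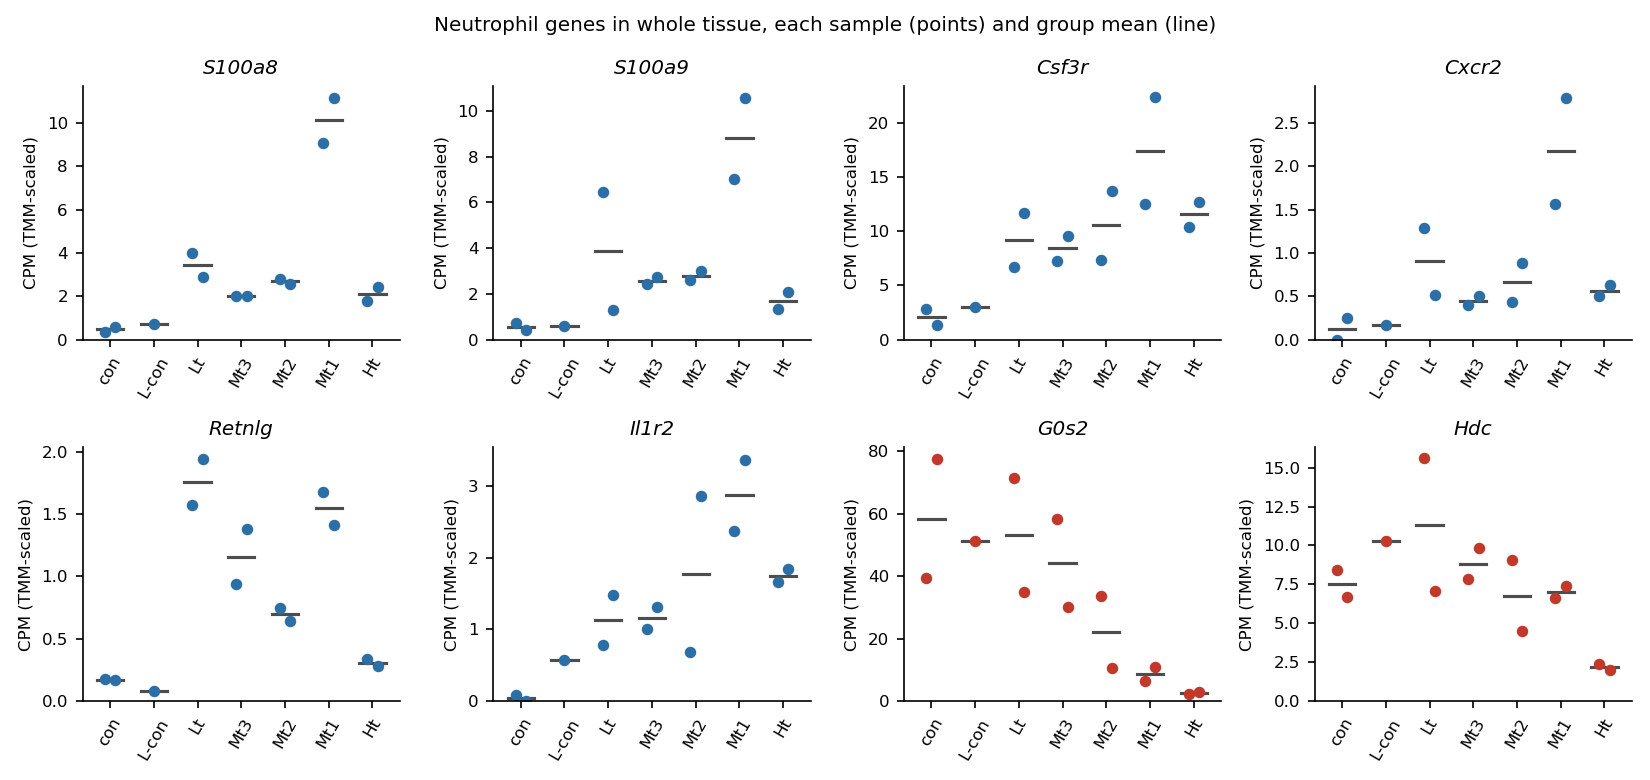
CPM of the 8 genes in each tissue sample (points) with the group mean (line), from normal liver (con) and tumor-free liver (L-con) to metastases of rising tumor content (Lt, Mt3, Mt2, Mt1, Ht). The 6 marker genes (blue) lie lowest in con and L-con, whereas G0s2 and Hdc (red) lie lowest in Ht.

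Other neutrophil genes were measured beside the members. Of these 14 genes, 10 were tested from con to Lt and 3 rose: Trem1, Cd177 and Mmp9. Mmp9, a gelatinase stored in neutrophil granules, had a log2 fold change of 6.13 ± 0.53. Trem1, a receptor that amplifies neutrophil and monocyte activation, had 0 counts in con and was at least 10.1-fold higher in Lt, against 3 counts over the group. Cd177, a neutrophil adhesion protein, also had 0 counts in con and was at least 5.04-fold higher. The summed level of the 14 genes was 4.30 to 5.84 CPM in con, 40.7 to 74.1 in Lt and 75.1 to 75.3 in Mt3. It was 104 to 145 CPM in Mt2, 142 to 242 in Mt1 and 167 to 185 in Ht, with Mmp9 alone at 159 and 170 CPM in Ht. Without Mmp9 the sum of the other 13 genes was 3.56 to 5.31 CPM in con, 11.1 to 13.5 in Lt, 20.98 to 25.6 in Mt1 and 8.70 to 14.8 in Ht, highest in Mt1 like S100a8 and S100a9. Over the 10 tested of all 14 genes, Mmp9 included, the median log2 fold change from con to Lt was 4.96. It was 2.28 with genes at 0 in a group set at their bound, beside 0.10 over all genes tested.

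Of 15 neutrophil genes that macrophages, lymphocytes or liver cells also use, 5 rose from con to Lt, with a median log2 fold change of 1.72. Among them were Slfn4, Acod1 and Lcn2. Lcn2, an iron-binding protein that hepatocytes also make, had a log2 fold change of 4.73. Slfn4 went from 2 counts in con to 512 in Lt, a ratio of 204 with a counting interval of 56.1 to 1685. Of 8 growth factors and chemokines that act on neutrophils, 5 were tested. Cxcl1, a neutrophil attractant, rose with a log2 fold change of 2.22 ± 0.56. Csf3, the ligand of Csf3r, had 0 counts in con, L-con and Lt and at most 13 in any tissue sample. Tlr4, a receptor of S100a8 and S100a9, rose by 1.28 on the log2 scale.

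Among the medium-content groups the marker genes stood highest in Mt1. S100a8 was at 2.01 and 2.00 CPM in Mt3, at 2.79 and 2.58 in Mt2 and at 9.09 and 11.2 in Mt1. S100a9 was at 2.41 and 2.76 CPM in Mt3, at 2.61 and 2.98 in Mt2 and at 7.003 and 10.6 in Mt1. For both genes the 2 Mt1 samples lay above every other tissue sample. Cxcr2 had the same top group, with 1.56 and 2.79 CPM in Mt1 and 0.401 to 0.887 CPM over the Mt3 and Mt2 samples. Csf3r was at 7.29 and 9.58 CPM in Mt3, at 7.39 and 13.7 in Mt2 and at 12.5 and 22.4 in Mt1, where the Mt2 and Mt1 samples overlapped. Il1r2 was at 1.00 and 1.32 CPM in Mt3, at 0.683 and 2.86 in Mt2 and at 2.37 and 3.37 in Mt1, and its Mt2 samples differed more from each other than the group means did. Retnlg was highest in Lt and Mt1, which overlapped, and lower in Mt2, at 0.745 and 0.645 CPM.

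No member passed the threshold from Mt3 to the mean of Mt2 and Mt1, or from Lt to the mean of the 3 Mt groups. By edgeR 0% of all genes, or 0 genes, did in either comparison, although 4745 and 3282 genes had an unadjusted p under 0.05, and DESeq2 called 936 and 240 genes, among them 2 members from Mt3 to the later groups and 0 from Lt to Mt. These 2 were S100a8, higher (log2 change 1.43, adjusted p = 0.00276 by DESeq2), and G0s2, lower (-1.63, adjusted p = 0.0300 by DESeq2). By edgeR S100a8 and G0s2 had the same adjusted p of 0.146 from Mt3 to the later groups, with log2 changes of 1.38 ± 0.29 and -1.66 ± 0.49. Members became called in both comparisons when Mt2 1 was left out, but not when Mt1 1 was. Hepatocyte markers summed to 102026 CPM in Mt2 1 beside 26537 in Mt2 2. They summed to 94204 CPM in Mt1 1 beside 24292 in Mt1 2. Their part in these calls was not tested.

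In the high-content metastases the 8 genes parted. From the mean of the Mt groups to Ht, Retnlg, G0s2 and Hdc fell, 3 of 8 members, beside 13.4% of all genes called lower and 14.9% called changed. With scaling by total counts these 3 fell as well, while the median gene moved to 0.55 on the log2 scale and the calls over all genes went from 257 higher and 2306 lower to 2587 higher and 1773 lower. G0s2 was at 58.2 and 30.1 CPM in Mt3, at 33.7 and 10.7 in Mt2, at 6.60 and 11.0 in Mt1 and at 2.31 and 2.85 in Ht. Both Ht samples lay below every Mt sample, as they did in 22.7% of all genes. They also lay below every other tissue sample, a condition for which no share was counted. The log2 change came to -2.99 ± 0.59 (adjusted p = 0.0116 by edgeR). Hdc was at 7.83 and 9.83 CPM in Mt3, at 9.07 and 4.48 in Mt2, at 6.60 and 7.37 in Mt1 and at 2.37 and 1.98 in Ht. Its Ht samples were also the lowest of the series, a log2 change of -1.77 ± 0.38 (adjusted p = 0.0146 by edgeR). Retnlg was at 0.335 and 0.278 CPM in Ht, a log2 change of -1.77 ± 0.36 (adjusted p = 0.0125 by edgeR).

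The other markers did not pass the threshold from Mt to Ht. S100a8, at 1.77 and 2.44 CPM in Ht, had a log2 fold change of -0.86 with an adjusted p of 0.0447 by edgeR, under the fold threshold. S100a9, at 1.32 and 2.09 CPM in Ht, had one of -1.24 with an adjusted p of 0.113 by edgeR. With Ht kept as 3 libraries S100a9 passed, at -1.34 (adjusted p = 0.0361 by edgeR). Csf3r was at 10.4 and 12.7 CPM and Il1r2 at 1.66 and 1.84 CPM in Ht, with log2 fold changes of -0.01 ± 0.36 and -0.06 ± 0.51. Without Ht 1 or without Ht 2, 0 members and 0 of all genes were called from Mt to Ht by edgeR, although 3760 and 4074 genes had an unadjusted p under 0.05. The fold changes stayed close, at -2.84 and -3.14 for G0s2 and -1.91 and -1.65 for Hdc.

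The comparison of Lt with Ht named the same 3 members. Retnlg, G0s2 and Hdc changed by -2.48 ± 0.42, -4.37 ± 0.68 and -2.37 ± 0.43 on the log2 scale, with adjusted p of 0.00335, 0.00311 and 0.00412 by edgeR. In all, 31.9% of the genes were called changed and 20.2% lower, 2004 genes higher and 3476 lower, against 6216 and 2081 with scaling by total counts, where the median gene moved to 0.87 on the log2 scale. These 3 calls held when any single Lt or Ht sample was left out.

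Across the whole range, from con to Ht, 5 of 8 members were called, 3 higher and 2 lower, beside 49.9% of all genes, of which 25.8% were higher and 24.1% lower. This share of members is near the background. S100a8, Csf3r and Il1r2 were higher in Ht, with log2 fold changes of 2.14 for S100a8 (adjusted p = 0.00115 by edgeR) and 2.48 for Csf3r (adjusted p = 0.00209 by edgeR). Il1r2, with its 1 count in con, had a ratio by counts of 40.3 with a counting interval of 7.12 to 1603. Monocyte markers were higher in Ht too, 7 of 7 with a median log2 change of 5.19. Of 9 macrophage markers 6 were higher and 1 lower, with a median of 1.76. The part of these cells in the 3 members was not tested. G0s2 was lower by a log2 fold change of -4.50 ± 0.68 (adjusted p = 5.18e-04 by edgeR) and Hdc by one of -1.79 ± 0.43 (adjusted p = 0.00570 by edgeR). S100a9, Cxcr2 and Retnlg did not pass the test, with adjusted p of 0.0862, 0.0849 and 0.271 by edgeR. With libraries scaled by their total counts the median gene was 1.28 higher in Ht on the log2 scale, the calls over all genes went from 4437 higher and 4139 lower to 8822 higher and 2249 lower, 6 members were higher and 1 lower, and Hdc, at -0.60, no longer passed (adjusted p = 0.181 by edgeR).

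**Figure D3:**
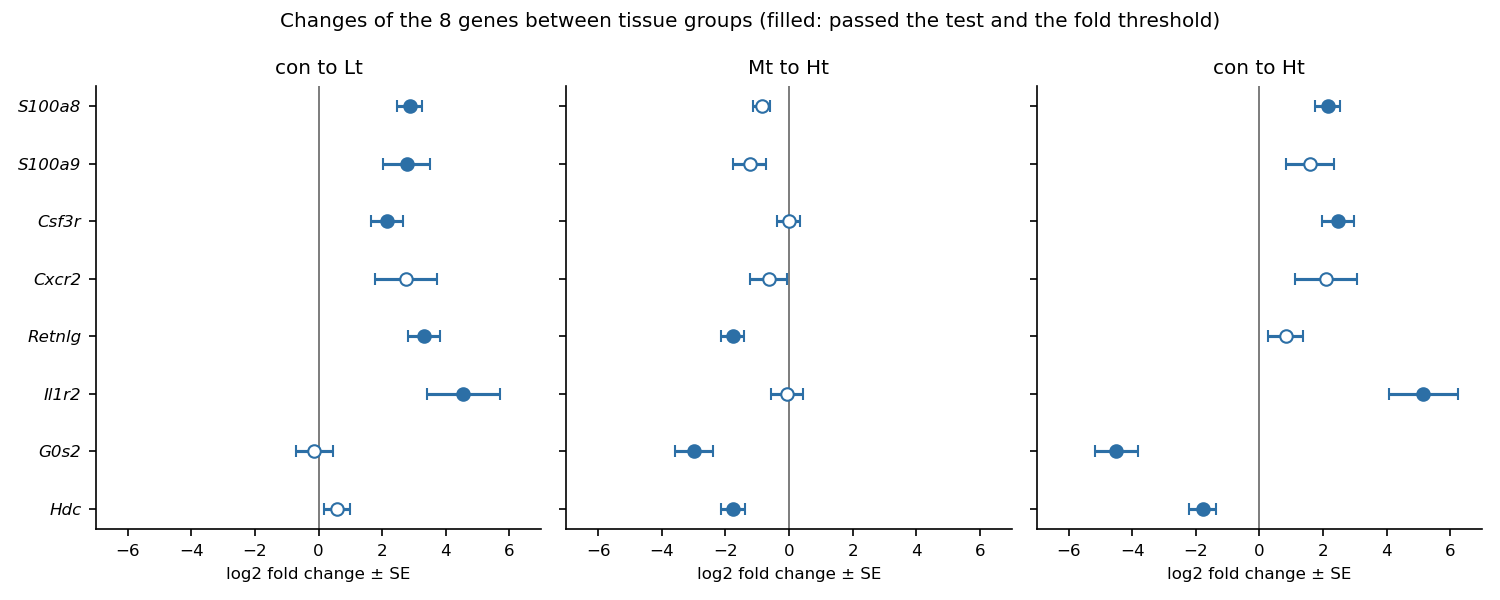
Fitted log2 fold changes (points) with standard errors (bars) of the 8 genes from con to Lt, from the 3 Mt groups together to Ht, and from con to Ht, where filled points passed the test and the fold threshold. 5 markers are filled to the right in the first panel, and G0s2 and Hdc are filled to the left in the other 2 panels.

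The tumor-free liver L-con, with 1 library, lay above both con libraries in 4 of the 8 members, beside 36.0% of all genes. The order of the groups differed between the members. For S100a8 it was Mt1, Lt, Mt2, Ht, Mt3, L-con and con by the mean, and the samples of Ht and Mt3 overlapped while those of all other neighbours did not. For Csf3r the order was Mt1, Ht, Mt2, Lt, Mt3, L-con and con, with overlap between all neighbours from Mt1 to Mt3. For G0s2 it was con, Lt, L-con, Mt3, Mt2, Mt1 and Ht, and of these neighbours Mt1 and Ht alone did not overlap. For Hdc it was Lt, L-con, Mt3, con, Mt1, Mt2 and Ht, and neighbours did not overlap between L-con and Mt3 or between Mt2 and Ht.

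The fall of G0s2 went with a fall of hepatocyte markers. The 10 hepatocyte markers summed to 171900 to 197565 CPM in con, 94179 to 171943 in Lt, 105246 to 132904 in Mt3 and 26537 to 102026 in Mt2. They summed to 24292 to 94204 CPM in Mt1 and 3562 to 4940 CPM in Ht, and all 10 fell from Mt to Ht, with a median log2 fold change of -4.28. Over the 10 tumor-bearing samples, G0s2 correlated with the mean level of these markers on the log2 scale (Pearson r = 0.901, p = 3.70e-04, adjusted p = 0.00148 over 4 relations by permutation; Spearman rho = 0.879, adjusted p = 0.00680). Without the 2 Ht samples, which lay farthest out, r was 0.767 (permutation p = 0.0294). These permutations, and those below, moved samples freely across the groups. A trend that both measures share over the groups therefore enters the p. The part of hepatocytes in the level of G0s2 was not tested.

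With the 14 other neutrophil genes G0s2 had r = -0.562 (permutation adjusted p = 0.187) and rho = -0.552, and r = -0.721 without the 2 Mt1 samples (permutation p = 0.0418). Hdc had r = -0.292 with the same genes (permutation adjusted p = 0.544) and rho = -0.612, and r = -0.798 without the Mt1 samples (permutation p = 0.0180). With the 12 basophil and mast cell markers Hdc had r = -0.221 (permutation adjusted p = 0.544) and rho = -0.394, and -0.0152 without the 2 Mt3 samples. The relation of G0s2 to hepatocyte markers was the only one of the 4 past the threshold over all 10 samples.

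**Figure D4:**
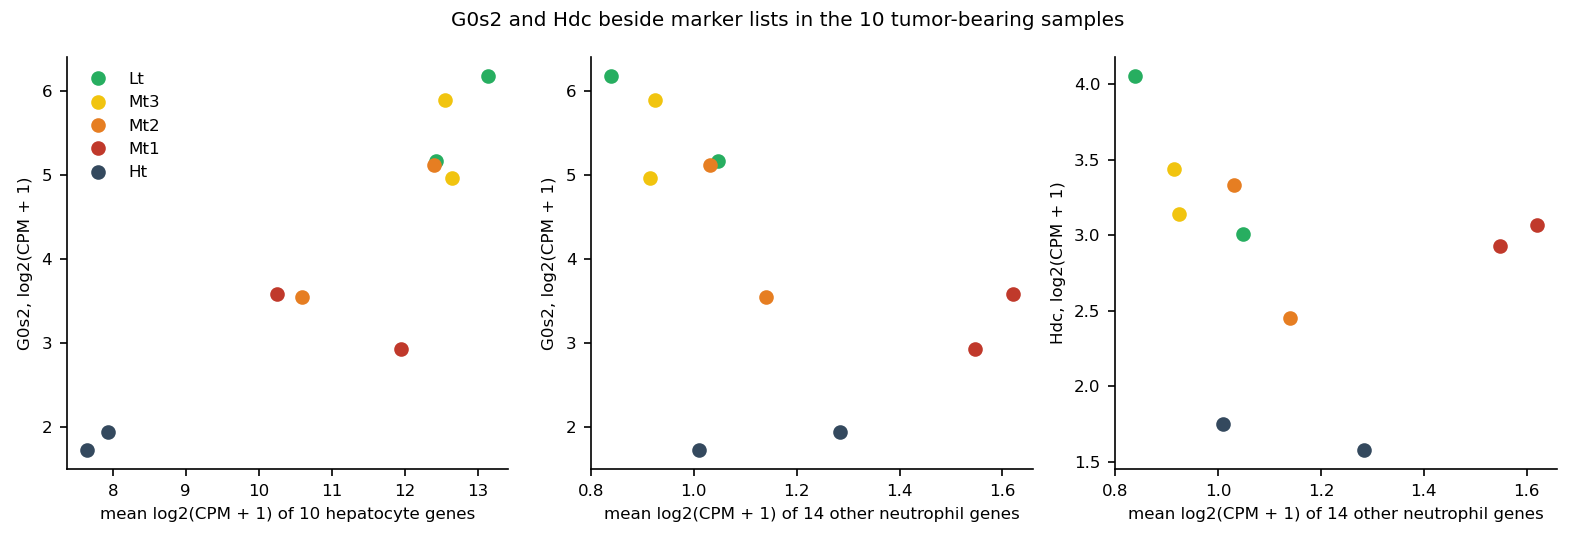
log2(CPM + 1) of G0s2 or Hdc against the mean log2(CPM + 1) of 10 hepatocyte genes or of 14 other neutrophil genes in the 10 tumor-bearing samples, colored by group. G0s2 rises with the hepatocyte genes (r = 0.901), with both Ht samples at the lower left, while r with the neutrophil genes is -0.562 for G0s2 and -0.292 for Hdc.

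Among the members themselves, over the same 10 samples and as a description, Csf3r and Il1r2 ran most alike (r = 0.941), followed by S100a8 and Cxcr2 (0.928), S100a9 and Cxcr2 (0.918), G0s2 and Hdc (0.883), and S100a8 and S100a9 (0.880). S100a8 and Csf3r had r = 0.585, and S100a8 and G0s2 r = -0.105. Of 13943 other genes with a mean of at least 1 CPM, those most like G0s2 were Rnf186 (0.992), Scd1 (0.986) and Peg13 (0.983), where Scd1 is a desaturase of fatty acid synthesis in the liver. Those most like Hdc were Plet1 (0.965), Alg1 (0.959) and Il1a (0.955). Those most like S100a8 were Slpi (0.883), Ikbke (0.880) and Bmper (0.867), and Slpi, a protease inhibitor of neutrophils and epithelia, also stood first for Cxcr2 (0.948), followed by Jchain (0.908) and Bmper (0.898). For S100a9 they were Ikbke (0.916), Crispld2 (0.895) and Gm30692 (0.888). For Csf3r they were Nkd2 (0.953), Wisp2 (0.951) and Cdh11 (0.940). Genes most like Il1r2 included Nfkbiz (0.977) and Loxl2 (0.936). For Retnlg they were Serpina3i (0.939), Tcaf1 (0.928) and Parp3 (0.910).

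Genes that work with G0s2 were measured beside it. Of 8 genes of triglyceride breakdown and lipid droplets, Hilpda, like G0s2 an inhibitor of adipose triglyceride lipase, rose from con to Lt by 1.47 on the log2 scale and no other passed. From Mt to Ht 4 of the 8 fell and none rose, beside 13.4% of all genes called lower: Plin5 (-3.02), Mgll (-2.997), Pnpla2 (-1.34) and Plin2 (-1.34). The hepatocyte markers fell with them, 10 of 10 with a median log2 change of -4.28, and their part in this fall or in that of Hnmt was not tested. Pnpla2, the lipase that G0s2 inhibits, had an adjusted p of 0.0252 by edgeR there. Around Hdc, 5 of 7 genes of histamine breakdown, storage and reception were tested. Hnmt, which inactivates histamine by methylation, fell from Mt to Ht, with a log2 change of -2.99. Aoc1, the diamine oxidase, had 0 counts in con and was at least 34.7-fold higher in Lt, against 3 counts over the group, and Hrh2, a histamine receptor, had a log2 fold change of 3.20 from con to Lt.

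Around Il1r2, all 5 genes of the interleukin-1 system fell from Mt to Ht, while Il1r2 itself had a log2 fold change of -0.06. Il1b fell by 2.79, Il1a by 2.69, Il1rap by 1.86 and Il1rn by 1.45 on the log2 scale, beside 13.4% of all genes called lower. Kupffer cell markers fell in the same comparison, 4 of 4, with a median log2 change of -2.44, from a sum of 231 to 804 CPM over the Mt samples to 67.5 to 113 CPM in Ht. Their part in the fall was not tested. These calls, like every other from Mt to Ht, were lost without either Ht sample. From con to Lt none of the 5 passed the test. The neutrophil attractants Cxcl1 and Ppbp fell from Mt to Ht by 1.66 and 1.97 on the log2 scale. They were 2 of the 5 tested among the 8 growth factors and chemokines. None of the 10 tested among the 14 other neutrophil genes passed (median log2 fold change 0.08).

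The 12 basophil and mast cell markers summed to 9.20 to 13.2 CPM in con and 39.3 to 39.7 CPM in Ht, where Hdc was lowest. Most of that sum was Gata2, a factor that endothelial cells also use, at 33.4 and 31.6 CPM in Ht. The mast cell protease gene Cpa3 had 0 counts in con and 17 and 14 counts in Ht, and Mcpt8 had 8 and 9 counts there. Their part in the level of Hdc was not tested.

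Set beside Mt2 tissue after joint scaling of all 19 samples, the sorted libraries could be read against tissue of the same kind. Cell sorting, the separate count tables and the sex read from Ddx3y and Xist cannot be told apart here, so these values are a description. In all 8 genes every CD11b+ library stood above both Mt2 samples, as did 29.4% of the 18407 genes compared. Nothing is read from this count either, since G0s2 and Hdc were picked for high levels in the same CD11b+ libraries. S100a8 was at 2.93 and 2.71 CPM in Mt2 and at 247, 158 and 1309 CPM in CD11b+ cells on this scale. G0s2 was at 35.3 and 11.2 CPM in Mt2 and at 36.7, 68.4 and 138 CPM in CD11b+ cells, so that Mt2 1 lay just under the lowest CD11b+ library. In F4/80+ cells G0s2 was at 0.354, 1.13 and 0.888 CPM, below both Mt2 samples. Hdc was at 9.50 and 4.69 CPM in Mt2, at 4.70, 6.19 and 10.7 CPM in F4/80+ and at 81.2, 136 and 79.5 CPM in CD11b+ cells.

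Per length of the gene, as FPKM, which divides CPM by the deposited gene length in kilobases, S100a9 was the highest of the 8 in the CD11b+ cells, at a mean of 1683 ± 1679 FPKM (SD, n = 3). S100a8 followed at 930 ± 1049, Retnlg at 168 ± 114, G0s2 at 105 ± 68.3 and Csf3r at 101 ± 22.2 FPKM. Il1r2, Cxcr2 and Hdc had 46.2 ± 13.5, 17.6 ± 3.75 and 17.3 ± 5.53 FPKM. The large spreads of S100a8 and S100a9 came from CD11b+ library 3, and without it the median log2 fold change of the 8 genes between the populations was -2.86 in place of -3.84. Without F4/80+ library 3 it was -5.95.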

How the data were processed

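RNA-seq was made from whole liver or metastasis tissue and from bead-sorted cells. Per the labels and the submitters' processing notes, the authors aligned reads with HISAT2 2.0.5 to GRCm38 (mm10) and counted them per gene with featureCounts 1.5.0-p3. The deposited values are raw counts per gene in 1 table of tissue and 1 of sorted cells, with no normalization. Whether counting used strand is not given in the sources used here, so reads of overlapping antisense genes cannot be told apart. Replicates were taken as the Methods describe them, 2 livers for each tissue group except L-con, with Ht libraries 1 and 3 summed. Their counts nonetheless differed by more than sampling noise, with a chi-square per degree of freedom of 30.3, against 29.1 for libraries 1 and 2 and 13.2 for libraries 2 and 3, so the counts alone would pair the latter. Keeping 3 libraries was an alternative.

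The 8 members and all gene lists were chosen with earlier results of these data known, and G0s2 and Hdc on the sorted populations. The named genes are the members, plus the genes of the lists that passed the threshold or, where a gene defines a cell type, its counts. Libraries were scaled by TMM, genes with low counts were removed with filterByExpr, and edgeR 4.0.16 (R 4.3.3) quasi-likelihood tests were run on 17187 genes over 13 tissue samples in 7 groups and on 14263 genes in 6 sorted libraries. Benjamini-Hochberg adjustment ran over all genes tested, with a threshold of 0.05 and an absolute change of at least 1 on the log2 scale. The medium groups entered as their mean (Mt). The SE is the absolute log2 change divided by the square root of the quasi-likelihood F statistic, not a directly fitted standard error. No test is read from the sorted comparison. Ratios against few counts carry exact 95% intervals, which cover counting error only. A group at 0 counts was set at 3 counts over the group. Correlations used log2(CPM + 1), 100000 two-sided permutations and Python 3.11.15 with scipy 1.17.1. Likeness of other genes was Pearson's r on the same scale. Some genes that the naming rule selects are not reported here. On simulated data with 200 changed genes, a change of 1.5 on the log2 scale was recovered in 76.1% of genes and a change of 2 in 95% from con to Lt, among 16160 genes. From con to Ht the shares were 79.4% and 87.0%, among 16143 genes, from Mt to Ht 88.2% and 100%, among 16171, and from Lt to Ht 65.8% and 92.8%, among 16166. The changed genes were drawn only from genes above a cut on mean counts, with the same baseline level in all groups. Counts as few as those of Cxcr2, Retnlg and Il1r2 in con were not simulated, so these shares do not give the power for the members. DESeq2 1.42.0, other filters, scaling by total counts and leaving out each sample were tried as alternatives.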

Additional observations from a re-analysis of the deposited data

Results flagged for a closer look

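The tumor-free liver of a metastasis-bearing mouse (L-con) is 1 library and entered no comparison. In 4 of the 8 genes it lay above both normal liver libraries, under TMM and under total-count scaling, and 36.0% of all genes tested did so under TMM. S100a8 was at 0.741 CPM, from 9 counts beside 4 and 7 in con. Csf3r was at 3.05 CPM, from 37 counts beside 32 and 16. Il1r2 was at 0.577 CPM, from 7 counts beside 1 and 0, and Hdc at 10.3 CPM, from 125 counts beside 95 and 81. With 1 library these differences were not tested.

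The summed level of the 14 other neutrophil genes in L-con was 19.7 CPM, above 4.30 to 5.84 CPM in con and below 40.7 to 74.1 CPM in Lt. Mmp9 alone gave 9.97 CPM of it. Monocyte markers summed to 95.8 CPM beside 10.7 to 15.2 in con, and Kupffer cell markers to 846 CPM beside 312 to 416, and their part in these levels was not tested. G0s2, at 51.4 CPM, lay within the con range.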

How the results depend on the processing

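The members called from con to Lt were 5, and 1 when at least 10 counts were required in every sample, where 3 members were tested, and 2 to 4 with 1 sample left out. From con to Ht they were 5, and 3 with at least 10 counts and 7 with total-count scaling. From Lt to Mt they were 0, and 1 with no filter and 0 to 1 with 1 sample left out. From Mt3 to the later groups they were 0, and 2 with DESeq2, 2 with no filter and 0 to 2 with 1 sample left out. From Mt to Ht they were 3, and fewer when either Ht sample was left out. They were 4 with no filter, with only the groups compared and with Ht as 3 libraries. Each of these added S100a9, with adjusted p of 0.0140, 0.0400 and 0.0361 by edgeR. The median log2 change of the members between the sorted populations ranged from -5.95 to -2.86 with 1 library left out.

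The fitted change of G0s2 from con to Lt turned from -0.14 to 0.10 with total-count scaling and ranged from -0.76 to 0.43 with 1 sample left out, and that of Hdc ranged from -0.12 to 1.05. The correlation of G0s2 with the 14 neutrophil genes was -0.684 with total-count scaling (permutation p = 0.0318) and -0.721 without the 2 Mt1 samples, that of Hdc -0.798 without them, and that of Hdc with basophil and mast cell markers 0.062 with a pseudocount of 0.1. The causes were not tested.

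Samples with the same number deviated together among Lt, Mt3, Mt2 and Mt1 (correlations of 0.235 to 0.716 over 6 pairs of groups) but not where con or Ht was one of the groups (-0.363 to -0.0594 over 9), and no label ties the numbers to shared animals or days, so they were not read as pairs. With the replicate block the members called numbered 5 from con to Lt, 5 from con to Ht, 0 from Lt to Mt, 3 from Mt to Ht, 3 from Lt to Ht and 0 from Mt3 to the later groups, and the sorted median was -4.51. For the correlations, both measures were centred within the sample number and permuted within it, an alternative chosen after seeing the data. With this replicate block G0s2 kept its relation to hepatocyte markers (r = 0.898, exact permutation p = 2.78e-04, and 0.744 without the 2 Ht samples, exact permutation p = 0.0278). Without the 2 Mt1 samples the blocked r with the 14 neutrophil genes was -0.719 for G0s2 and -0.804 for Hdc, and that of Hdc with basophil and mast cell markers was 0.455 without the 2 Mt3 samples. With only con and Lt in the fit, 7 members were tested and 4 called, and a crossed pairing in that fit, chosen after seeing the data, also gave 4. Groups of 2 samples and few counts of Cxcr2, Retnlg and Il1r2 in con limit what these comparisons can show.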
